A study of Drosophila melanogaster with 10 samples.

Results

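The genes described here are the 5 serotonin receptors of Drosophila melanogaster, 5-HT1A, 5-HT1B, 5-HT2A, 5-HT2B and 5-HT7, and the serotonin transporter SerT. They were taken by their FlyBase identifiers, and all 6 were found among the 17716 genes of the table of the 3 transgenic groups and among the 17716 genes of the table of TRAP control and whole brain. The study expressed human PARIS (ZNF746), a transcriptional repressor linked to Parkinson's disease, in fly dopaminergic (DA) neurons and sequenced the mRNA on their ribosomes by TRAP-seq, in which a GFP-tagged ribosomal protein, RpL10A, lets an anti-GFP antibody isolate the ribosomes of the cells that make it. The PARIS WT flies carried dTH-Gal4, UAS-GFP::RpL10A and wild-type human PARIS, and the PARIS C571A flies carried the same driver and tag with PARIS bearing the C571A mutation. The TRAP control flies carried the driver and the tag alone, so both were shared by all 3 groups, and the whole brain sample came from w1118 wild-type flies without TRAP. Each TRAP group had 3 libraries from independent samples and whole brain had 1.

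Several features of the design limit these groups as models. PARIS is a human protein that dTH-Gal4 drives in whichever cells the driver is active in, and the heads of male and female flies were mixed. Each PARIS WT library was made from 1500 heads, whereas each PARIS C571A and each TRAP control library was made from 500 heads, so the number of heads and PARIS WT cannot be told apart. The labels give an age of 30 days for every sample, whereas the study's methods place the collection soon after eclosion. The extraction protocol describes the whole brain sample as whole-head RNA without pull-down, so eye, fat and muscle of the head may be in it.

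Serotonin is made from tryptophan, loaded into vesicles and released. All of its receptors in flies are G protein-coupled receptors. 5-HT1A and 5-HT1B couple to inhibitory G proteins and lower cyclic AMP, 5-HT7 couples to the stimulatory G protein and raises it, and 5-HT2A and 5-HT2B act through phospholipase C and calcium. SerT is a sodium-dependent transporter of the SLC6 family that takes serotonin back up into the cell, and in the fly brain it is used as a marker of serotonergic neurons. Serotonin and dopamine act together in the fly brain in sleep, feeding and learning.

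On chromosome arm 2R lie 3 of the genes and on 3R the other 3, in coordinates of the BDGP6 assembly, and every one of them is protein-coding. 5-HT1A (FBgn0004168) spans 2R:19067155-19121958 on the plus strand and 5-HT1B (FBgn0263116) spans 2R:19022325-19032642 on the minus strand, with 34512 bp between them. SerT (FBgn0010414) spans 2R:24404595-24411074 on the minus strand. 5-HT2A (FBgn0087012) spans 3R:4612870-4633304 and 5-HT2B (FBgn0261929) spans 3R:8578205-8629996, both on the plus strand. 5-HT7 (FBgn0004573) spans 3R:30968236-31016875 on the minus strand. No exonic base of any of them is shared with another annotated gene, which matters because the library kit does not mark the strand. Their annotated exons cover between 3725 bp in SerT and 6333 bp in 5-HT2B.

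The deposited values are estimated read counts per gene, deposited as whole numbers. Counts on genes ranged from 8819116 to 50102982 per TRAP library and were 11619907 in whole brain. Ribosomal RNA genes took between 12.4% and 34.8% of the counts of a TRAP library and 3.13% in whole brain. Mitochondrially encoded genes took between 0.301% and 53.8% of the counts of a TRAP library and 0.954% in whole brain. The mitochondrial share was 0.301% in replicate 2 of PARIS WT and 0.375% in replicate 2 of PARIS C571A, against 19.2% to 38.9% in TRAP control. To set libraries side by side, counts were scaled by TMM, a method that adjusts for the bulk of genes, and are given as CPM, counts brought to the same total in every library. All 6 genes had counts well above 0 in every library, between 104 and 2209 in the TRAP libraries and between 102 and 1300 in whole brain, and all 6 passed the filter on low counts in every comparison. The defining markers of DA neurons were less evenly measured. ple, tyrosine hydroxylase, ranged from 0 to 1017 counts in PARIS WT, from 1323 to 2764 in PARIS C571A and from 0 to 953 in TRAP control. DAT, the dopamine transporter, had counts in only 1 library of each TRAP group and was at 0 in the others. The counts were 1488 in PARIS WT, 1882 in PARIS C571A and 1552 in TRAP control. The summed level of 4 DA neuron markers was 336 to 460 CPM in PARIS WT, 346 to 456 CPM in PARIS C571A and 331 to 478 CPM in TRAP control. Ddc and Vmat, described below, held most of these sums. Photoreceptor markers, which should be absent from DA neurons, summed to 11851 to 12958 CPM in PARIS WT, 14260 to 14639 CPM in PARIS C571A and 12709 to 13909 CPM in TRAP control, so RNA of other head cells was present in every pull-down. Of the marker lists, only that of testis held called genes. Against TRAP control, 4 of 10 were called lower in PARIS WT (0.608% of all genes) and 1 of 10 in PARIS C571A (0.15%). The 10 genes had median log2 fold changes of −4.07 and −1.47 in the same order. The gene bol held most of their summed level and differed from the rest in direction. The other 9, set apart after their values were seen, summed to 6.02 to 8.23 CPM in PARIS WT, 35.1 to 45.1 CPM in PARIS C571A and 119 to 146 CPM in TRAP control. Their part in the results below was not tested. In bulk libraries of this kind, fewer cells of a type and less RNA per cell cannot be told apart.

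Set on a scale per length of annotated exon, the 6 genes had the same order of mean level in all 3 TRAP groups and in whole brain. 5-HT2A was first, followed by SerT, 5-HT1A, 5-HT1B, 5-HT7 and 5-HT2B. In PARIS WT the levels ran from 8.02 ± 1.82 CPM per kb for 5-HT2A to 1.32 ± 0.146 CPM per kb for 5-HT2B (SD, n = 3). In PARIS C571A they ran from 9.41 ± 2.29 to 1.39 ± 0.591 CPM per kb, and in TRAP control from 5.51 ± 1.09 to 1.54 ± 0.276 CPM per kb, for the same 2 genes (SD, n = 3). The order rests on means, and most neighbours in it overlapped between replicates. In PARIS WT the replicate ranges of SerT and 5-HT1A and of 5-HT1A and 5-HT1B were separate and those of the other neighbours overlapped. In PARIS C571A only 5-HT2A and SerT were separate, and in TRAP control only SerT and 5-HT1A. In no TRAP group were 5-HT1B and 5-HT7, or 5-HT7 and 5-HT2B, separate. The exon lengths are those of all annotated isoforms together, and which isoforms were present was not tested.

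5-HT2A, a receptor of the phospholipase C class, was the most abundant receptor in every TRAP group. It had 54.3, 35.2 and 40.7 CPM in PARIS WT replicates 1, 2 and 3, against 36.0, 24.3 and 29.1 CPM in TRAP control. The PARIS WT libraries lay above TRAP control except that the lowest of them, replicate 2, was just under the highest TRAP control library. In PARIS C571A it had 36.7, 57.5 and 58.6 CPM, so all 3 libraries lay above all 3 of TRAP control, the lowest by little. Over TRAP control the fitted log2 fold change was 0.54 in PARIS WT (SE 0.24, 95% confidence interval −0.03 to 1.11) and 0.77 in PARIS C571A (SE 0.25, 95% confidence interval 0.16 to 1.38). With edgeR's quasi-likelihood test and Benjamini-Hochberg adjustment over all genes tested, neither passed the threshold of 0.05, with an adjusted p of 0.468 in PARIS WT and 0.390 in PARIS C571A. Over 12 alternative settings the adjusted p ranged from 0.346 to 0.730 in PARIS WT and from 0.154 to 0.728 in PARIS C571A, while the log2 fold change stayed above 0 in both, from 0.34 to 0.70 in PARIS WT and from 0.65 to 0.97 in PARIS C571A. The lowest value in PARIS WT came from leaving out PARIS WT replicate 1. The 2 comparisons share the TRAP control libraries, so they do not repeat each other independently. Between PARIS WT and PARIS C571A the log2 fold change was −0.19 (SE 0.25, 95% confidence interval −0.79 to 0.40), with an adjusted p of 0.962 by edgeR's quasi-likelihood test.

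**Figure D1:**
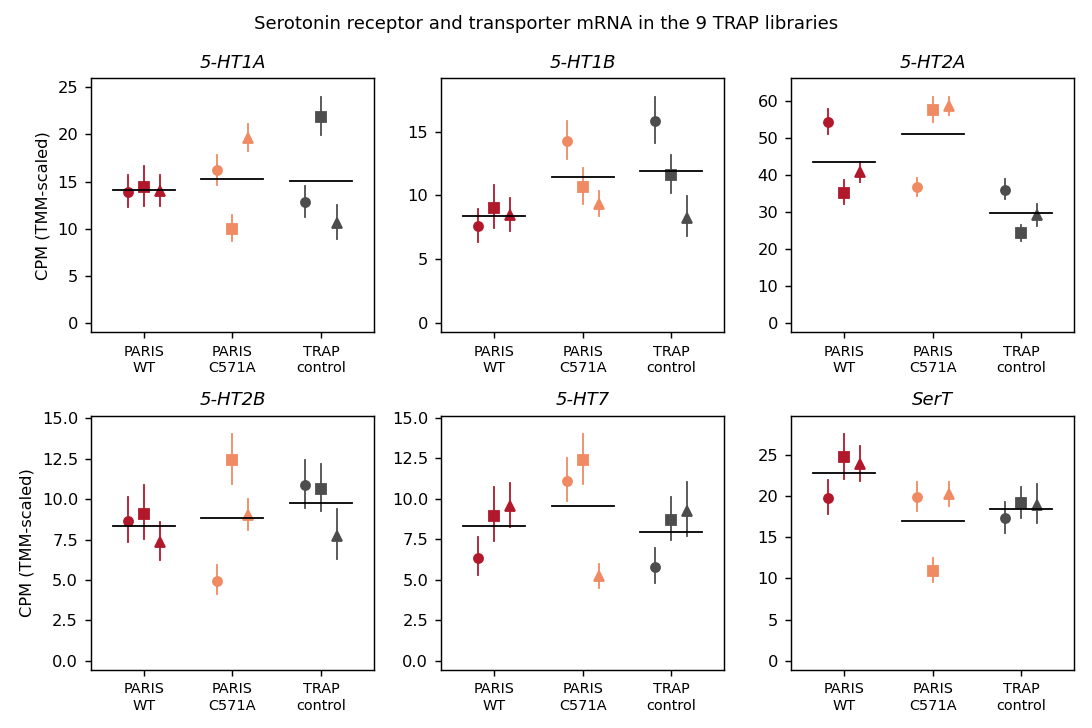
TMM-scaled CPM of each gene in the 9 TRAP libraries, with PARIS WT in red, PARIS C571A in orange and TRAP control in grey. Circles, squares and triangles are replicates 1, 2 and 3, vertical lines are 95% Poisson intervals of the count (counting error only) and horizontal lines are group means. For 5-HT2A all 3 PARIS C571A libraries sit above TRAP control, and for SerT all 3 PARIS WT libraries do.

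5-HT2B, the other receptor of this class, overlapped between all groups. It had 8.66, 9.11 and 7.33 CPM in PARIS WT and 4.96, 12.4 and 9.02 CPM in PARIS C571A, against 10.9, 10.6 and 7.74 CPM in TRAP control. The PARIS C571A libraries spanned the full range of the other groups and beyond, with replicate 1 the lowest and replicate 2 the highest of all 9 libraries. Over TRAP control its log2 fold change was −0.23 in PARIS WT (95% confidence interval −0.96 to 0.51) and −0.15 in PARIS C571A (95% confidence interval −1.19 to 0.89).

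The 2 receptors that lower cyclic AMP varied most within TRAP control. 5-HT1A, which is known in flies for its part in sleep, had 13.9, 14.4 and 14.0 CPM in PARIS WT and 16.2, 10.0 and 19.6 CPM in PARIS C571A, against 12.8, 21.9 and 10.6 CPM in TRAP control. The 3 PARIS WT libraries were nearly the same and lay inside the range of both other groups. Their coefficient of variation was 1.95%, less than the 6.50% that counting alone would give, whereas it was 31.9% in PARIS C571A and 39.5% in TRAP control, where counting would give 5.35% and 6.65%. The log2 fold change over TRAP control was −0.10 in PARIS WT (95% confidence interval −0.88 to 0.67) and 0.02 in PARIS C571A (95% confidence interval −0.93 to 0.96). Leaving out TRAP control replicate 2, the high library, gave 0.27 in PARIS WT.

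5-HT1B, known in flies for its effect on the circadian clock, had 7.59, 9.03 and 8.44 CPM in PARIS WT and 14.3, 10.7 and 9.33 CPM in PARIS C571A, against 15.9, 11.6 and 8.26 CPM in TRAP control. All 3 PARIS WT libraries lay below all 3 of PARIS C571A and below all but the lowest of TRAP control. For PARIS WT the log2 fold change was −0.42 against PARIS C571A (SE 0.28, 95% confidence interval −1.10 to 0.27, adjusted p = 0.853 by edgeR) and −0.52 against TRAP control (SE 0.33, 95% confidence interval −1.32 to 0.29, adjusted p = 0.703 by edgeR). Both values rest in part on single high libraries. Without PARIS C571A replicate 1 the first was −0.22, and without TRAP control replicate 1 the second was −0.25, while without TRAP control replicate 3 it was −0.72. Although 5-HT1A and 5-HT1B are neighbours on 2R, their levels did not move together across the 9 TRAP libraries, with a Pearson's r of log2 CPM of 0.15 (a description over libraries of 3 groups that also differ in depth).

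5-HT7, the receptor that raises cyclic AMP, had 6.35, 8.95 and 9.56 CPM in PARIS WT and 11.1, 12.4 and 5.20 CPM in PARIS C571A, against 5.80, 8.70 and 9.23 CPM in TRAP control. The groups overlapped fully, and PARIS C571A held both the highest and the lowest library. Its log2 fold change over TRAP control was 0.06 in PARIS WT (95% confidence interval −0.81 to 0.93) and 0.27 in PARIS C571A (95% confidence interval −0.81 to 1.36). Both intervals are wide on either side of 0, and how large a difference would have been detectable at this spread was not tested.

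SerT was the most evenly measured of the 6 in TRAP control. It had 19.8, 24.7 and 23.9 CPM in PARIS WT and 19.9, 11.0 and 20.2 CPM in PARIS C571A, against 17.3, 19.2 and 19.0 CPM in TRAP control. All 3 PARIS WT libraries lay above all 3 of TRAP control, the lowest by little, and PARIS C571A replicate 2 stood apart below every other library. The log2 fold change over TRAP control was 0.30 in PARIS WT (SE 0.19, 95% confidence interval −0.15 to 0.75, adjusted p = 0.686 by edgeR) and −0.12 in PARIS C571A (SE 0.29, 95% confidence interval −0.82 to 0.58). Without PARIS C571A replicate 2 the second value was 0.12. PARIS WT against PARIS C571A gave 0.46 (SE 0.28, 95% confidence interval −0.20 to 1.13, adjusted p = 0.805 by edgeR). Without PARIS C571A replicate 2 this value was 0.23, and without replicate 2 of both groups, an alternative chosen after seeing the data, it was 0.16. That replicate of PARIS C571A is one of the libraries with few mitochondrial counts, whose part in this was not tested.

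Counted together, 0 of the 6 genes were called in PARIS WT against TRAP control, where 0.103% of 9697 genes were called higher and 0.608% lower. In PARIS C571A against TRAP control 0 of 6 were called, beside 0.02% of 9986 genes higher and 0.15% lower, and in PARIS WT against PARIS C571A 0 of 6, beside 0.0213% of 9403 genes higher and 0% lower. With so few calls anywhere, a count of 0 among 6 genes is near the background. At an unadjusted p under 0.05, 5-HT2A in PARIS C571A against TRAP control was the only one of the 6 past the threshold, and it was higher there. Of all genes tested, that rule took 4.52% higher and 5.32% lower in that comparison, 4.23% higher and 7.4% lower in PARIS WT against TRAP control and 4.08% higher and 4.21% lower in PARIS WT against PARIS C571A. DESeq2, which called far more genes, also called 0 of the 6. Groups did not overlap for SerT in PARIS WT against TRAP control (higher, as for 9.71% of all genes), for 5-HT2A in PARIS C571A against TRAP control (higher, 9.94%) and for 5-HT1B in PARIS WT against PARIS C571A (lower, 10.1%, beside 7.07% higher), which is 1 of 6 in each. The log2 fold change was above 0 for 3 of the 6 in PARIS WT against TRAP control (48.4% of all genes), 3 of the 6 in PARIS C571A against TRAP control (50.5%) and 1 of the 6, SerT, in PARIS WT against PARIS C571A (48%). The median log2 fold change of the 6 genes was −0.02 in PARIS WT against TRAP control, −0.02 in PARIS C571A against TRAP control and −0.12 in PARIS WT against PARIS C571A, beside medians of −0.02, 0.01 and −0.02 over all genes tested.

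**Figure D2:**
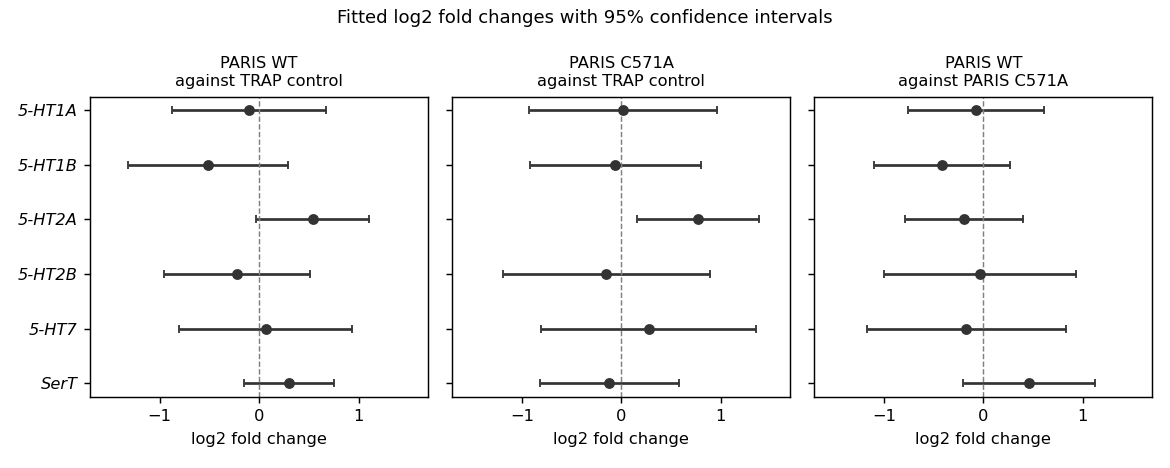
Fitted log2 fold change of each gene (points) with its 95% confidence interval (bars) in the 3 comparisons. The interval of 5-HT2A in PARIS C571A against TRAP control, 0.16 to 1.38, is the one that leaves out 0 before adjustment for multiple tests, and the other 17 cross 0.

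5-HT2A held the largest share of the receptor counts in every library, though 5-HT1A came close in TRAP control replicate 2, at 28.4%. Among the counts of the 5 receptors, the share of 5-HT2A was 59.8%, 45.9% and 50.9% in PARIS WT replicates 1, 2 and 3 and 44.0%, 55.8% and 57.6% in PARIS C571A, against 44.3%, 31.5% and 44.8% in TRAP control. All 3 PARIS WT libraries held a larger share than any TRAP control library, the nearest pair by about 1 percentage point, and 2 of the 3 PARIS C571A libraries did. In the single whole brain library the share was 71.3% (95% exact Clopper-Pearson interval 69.2% to 73.4%, counting error only), above every TRAP library. The remaining receptors had smaller shares, with a mean in TRAP control of 20.2% for 5-HT1A, 15.8% for 5-HT1B, 13.0% for 5-HT2B and 10.9% for 5-HT7. The summed level of the 5 receptors was 76.7 to 90.8 CPM in PARIS WT and 83.2 to 103 CPM in PARIS C571A, against 65.0 to 81.3 CPM in TRAP control.

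**Figure D3:**
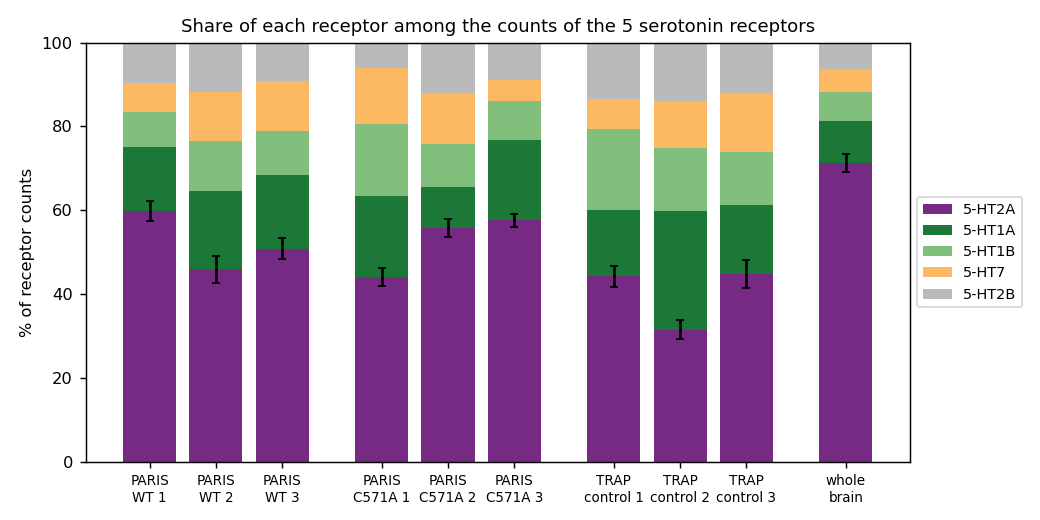
Share of each receptor among the counts of the 5 serotonin receptors in every library, in % of receptor counts. Error bars are the 95% exact interval of the 5-HT2A share within each library. From the lowest to the highest library, that share was 45.9% to 59.8% in PARIS WT and 44.0% to 57.6% in PARIS C571A. It was 31.5% to 44.8% in TRAP control and 71.3% in the single whole brain library.

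TRAP control was set against the single whole brain library to see which of the genes stood higher in the ribosome pull-down than in the total mRNA. With 1 whole brain library there is no test, and the values below compare these libraries. In a scaling of these 4 libraries alone, 5-HT2A had 44.2, 29.6 and 35.4 CPM in TRAP control, against 62.3 CPM in whole brain. It was the only one of the 6 below whole brain, in all 3 TRAP control libraries, with a log2 ratio of −0.79 ± 0.29 (SD, n = 3). Of all 11129 genes compared, 39.3% were below whole brain in all 3 libraries.

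The other 5 genes were above whole brain in all 3 TRAP control libraries, as 27.9% of all genes were. SerT had 21.3, 23.4 and 23.1 CPM in TRAP control, against 11.4 CPM in whole brain, a log2 ratio of 0.97 ± 0.07, the most even of the 6. 5-HT1A had 15.7, 26.7 and 12.9 CPM in TRAP control, against 8.67 CPM in whole brain, a log2 ratio of 1.02 ± 0.54 that was carried most by replicate 2. 5-HT1B had 19.5, 14.2 and 10.0 CPM in TRAP control, against 6.03 CPM in whole brain, a log2 ratio of 1.21 ± 0.48. 5-HT2B and 5-HT7 had log2 ratios of 1.10 ± 0.28 and 0.95 ± 0.35 (SD, n = 3 for each ratio). None of the 6 was past 2-fold in all 3 TRAP control libraries, in a comparison where 13.4% of all genes were past it upwards and 16.9% downwards. Without TRAP control replicate 1 or replicate 3, 2 of the 6 were past 2-fold upwards in the libraries left. That rule asks for fewer libraries, and the share of all genes past it is not given here.

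The size of these ratios depends on the scaling, and their order relative to other genes does not. The median log2 ratio over all genes was −0.36 with TMM and −1.46 when each library was divided by its total alone. By total alone the log2 ratios were −0.11 for 5-HT1A, 0.09 for 5-HT1B, −0.02 for 5-HT2B, −0.17 for 5-HT7 and −0.15 for SerT, so the direction against whole brain flipped for 4 of them, and −1.92 for 5-HT2A. Relative to the median of all genes, the 5 genes stood at 1.30 to 1.57 with TMM and at 1.29 to 1.55 by total alone, and 5-HT2A at −0.44 with TMM and −0.46 by total alone. With median-of-ratios size factors the log2 ratios of the 5 genes were 0.98 to 1.24, and without rRNA and mitochondrial genes also 0.98 to 1.24. 5-HT2A stood at −0.76 in both settings. Ribosomal RNA genes took 20.0% to 29.1% of the counts in TRAP control, against 3.13% in whole brain. Mitochondrial genes took 19.2% to 38.9%, against 0.954%. The part of these shares in the difference between scalings was not tested. Markers of other cells moved between the same libraries. Pan-neuronal markers summed to 1669 to 2338 CPM in TRAP control, against 534 CPM in whole brain, with a median log2 ratio of 1.84 over 7 genes. Glial markers summed to 834 to 887 CPM in TRAP control, against 966 CPM in whole brain. Their median log2 ratio was −3.00 over 6 genes. Of these 6, 4 were past 2-fold downwards in all 3 TRAP control libraries (16.9% of all genes), while Gs2 stood at 0.77. Muscle markers summed to 1304 to 1496 CPM in TRAP control, against 2762 CPM in whole brain, with a median log2 ratio of −1.05. Photoreceptor markers summed to 15617 to 16984 CPM in TRAP control, against 20153 CPM in whole brain, with a median log2 ratio of −0.46. Testis markers had a median log2 ratio of 1.71 over 10 genes. Of the 10, 5 were past 2-fold upwards in all 3 TRAP control libraries, beside 13.4% of all genes. The 4 DA neuron markers summed to 405 to 587 CPM in TRAP control, against 183 CPM in whole brain. Their median log2 ratio was −0.40, which took in the libraries of TRAP control where ple or DAT was at 0. Where they were read, ple stood at 1.66 and 1.17 in replicates 1 and 3, and DAT at 2.74 in replicate 1. The part of the mixture of cells in the ratios of the 6 genes was not tested.

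**Figure D4:**
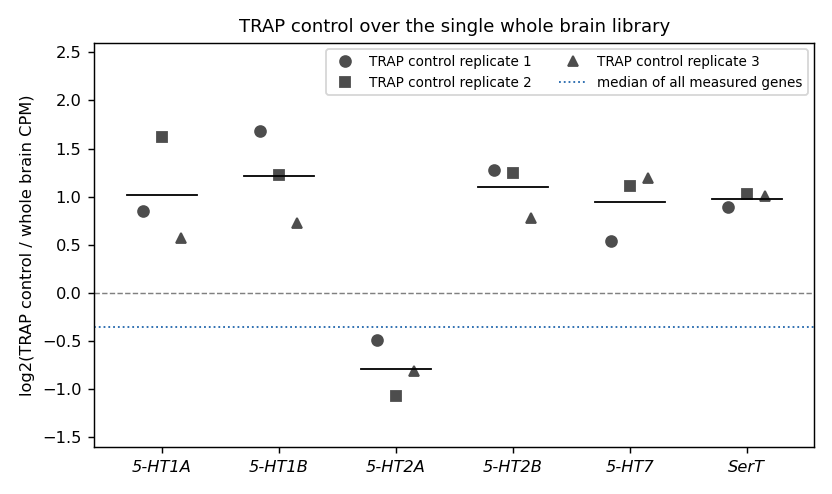
Log2 ratio of TMM-scaled CPM in each TRAP control replicate (circle, square and triangle for replicates 1, 2 and 3) to the single whole brain library, with the mean as a line. The dashed line is 0 and the dotted line is the median of all 11129 genes at −0.36. 5-HT2A, at a mean of −0.79, lies below both, and the other 5 genes, with means between 0.95 and 1.21, lie above both.

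SerT is a serotonergic marker, so the genes of serotonin synthesis were read beside it. Trhn, the neuronal tryptophan hydroxylase that starts serotonin synthesis, had 142, 64 and 103 counts in PARIS WT, 174, 53 and 139 counts in PARIS C571A, and 52, 0 and 0 counts in TRAP control. Whole brain had 266 counts of Trhn. The 2 TRAP control libraries at 0 for Trhn had 394 and 255 counts of SerT, so the counts of the 2 serotonergic markers did not go together there. In TRAP control, DAT also ranged from 0 to 1552 counts between replicates and ple from 0 to 953. Whether such zeros reflect the level of the mRNA was not tested. The log2 fold change of Trhn over TRAP control, for which the zeros of Trhn leave a wide error, was 2.68 in PARIS WT (SE 1.91, adjusted p = 0.746 by edgeR). In PARIS C571A it was 2.26 (SE 1.96, adjusted p = 0.841 by edgeR). PARIS WT lay wholly above TRAP control, as for 9.71% of all genes, and PARIS C571A overlapped TRAP control. PARIS WT against PARIS C571A gave 0.46 for Trhn (SE 0.52, adjusted p = 0.962 by edgeR). Relative to whole brain, TRAP control replicate 1 stood at a log2 ratio of −1.92 for Trhn, while its ratio for SerT was 0.89.

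Hn, the phenylalanine hydroxylase that also makes the serotonin precursor outside neurons, had 61.2, 69.9 and 64.6 CPM in PARIS WT and 52.4, 34.9 and 49.4 CPM in PARIS C571A, against 35.5, 39.2 and 44.1 CPM in TRAP control. All 3 PARIS WT libraries lay above every library of the other groups. Taken singly, 9.71% of all genes lay wholly higher in PARIS WT against TRAP control and 7.07% against PARIS C571A. The log2 fold change of PARIS WT was 0.71 against TRAP control (SE 0.14, adjusted p = 0.106) and 0.56 against PARIS C571A (SE 0.18, adjusted p = 0.456), both by edgeR and neither past the threshold. In TRAP control Hn was well below whole brain, with a log2 ratio of −2.25 ± 0.15 (SD, n = 3).

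Ddc, the decarboxylase shared by dopamine and serotonin synthesis, had 167, 150 and 147 CPM in PARIS WT and 137, 150 and 166 CPM in PARIS C571A, against 132, 105 and 147 CPM in TRAP control. Its log2 fold change over TRAP control was 0.27 in PARIS WT (adjusted p = 0.627 by edgeR) and 0.24 in PARIS C571A (adjusted p = 0.752 by edgeR). Vmat, which loads monoamines into vesicles, had 169, 188 and 191 CPM in PARIS WT and 159, 133 and 167 CPM in PARIS C571A, against 216, 226 and 266 CPM in TRAP control. Both PARIS groups lay wholly below TRAP control for Vmat, as 12.3% of all genes did in PARIS WT and 10.6% in PARIS C571A. Its log2 fold change was −0.37 in PARIS WT (SE 0.12, adjusted p = 0.282 by edgeR). In PARIS C571A it was −0.63 (SE 0.14, adjusted p = 0.199 by edgeR). Over whole brain, TRAP control had log2 ratios of 1.01 ± 0.24 for Ddc and 1.99 ± 0.15 for Vmat (SD, n = 3).

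The 3 genes that make or restore the pterin cofactor of the hydroxylases stayed within wide errors. Pu, GTP cyclohydrolase, averaged 83.6 CPM in PARIS WT and 104 CPM in PARIS C571A, against 77.1 CPM in TRAP control. pr, the next enzyme, averaged 45.6 CPM in PARIS WT and 52.1 CPM in PARIS C571A, against 41.9 CPM in TRAP control. Dhpr, dihydropteridine reductase, averaged 15.9 CPM in PARIS WT and 17.3 CPM in PARIS C571A, against 23.0 CPM in TRAP control. Their log2 fold changes over TRAP control ran from −0.54 for Dhpr in PARIS WT to 0.43 for Pu in PARIS C571A, and the smallest adjusted p by edgeR was 0.566, for Pu in PARIS C571A. Of the 7 synthesis genes, 0 were called in any of the 3 comparisons.

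**Figure D5:**
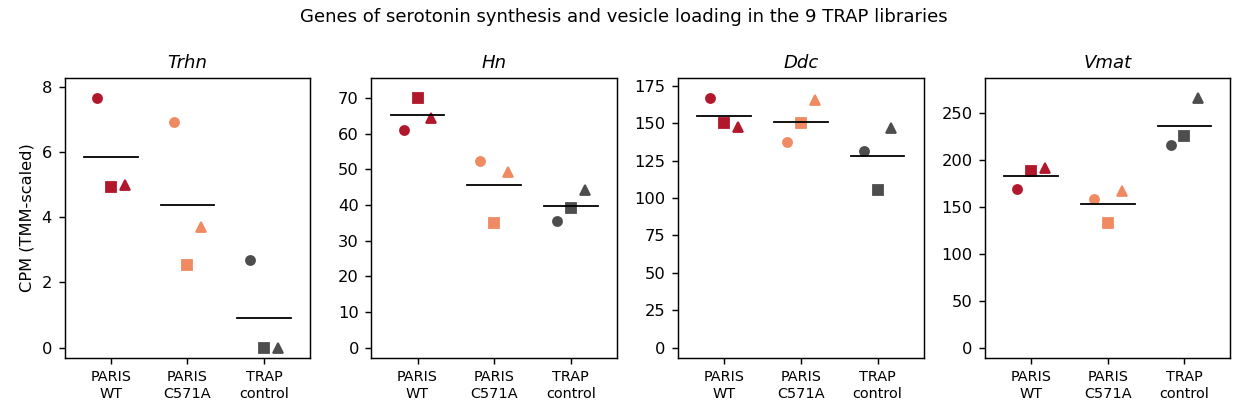
TMM-scaled CPM of 4 genes of serotonin synthesis and vesicle loading in the 9 TRAP libraries, with PARIS WT in red, PARIS C571A in orange and TRAP control in grey. Circles, squares and triangles are replicates 1, 2 and 3 and lines are group means. Trhn is at 0 in 2 TRAP control libraries. Hn is highest in PARIS WT and Vmat is lower in both PARIS groups than in TRAP control, both without passing the test.

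The amine receptors closest in kind to the serotonin receptors were represented by 12 receptors for dopamine, octopamine and tyramine. In PARIS WT against TRAP control 1 of them was called lower, as 0.608% of all genes were. In the other comparisons 0 were called (11 of the 12 passed the filter in PARIS WT against PARIS C571A). The called gene was Octalpha2R, an octopamine receptor, with 0 counts in all 3 PARIS WT libraries, against 1308, 1602 and 757 counts in TRAP control. Its reading was at least 375-fold lower in PARIS WT, if 3 counts per library are the limit that a count of 0 allows (adjusted p = 0.00324 by edgeR). In PARIS C571A it had 0, 1689 and 0 counts, so a reading of 0 also occurred where another replicate was high. Whether these zeros reflect the level of the mRNA was not tested, so the bound holds for the counts alone. The call was lost when all 3 groups were fitted together. In PARIS C571A against TRAP control the smallest p values of the list were those of Dop2R, a dopamine receptor that lowers cyclic AMP, with a log2 fold change of −0.81 (adjusted p = 0.338), and of Oamb, an octopamine receptor, with 0.94 (adjusted p = 0.398), both by edgeR. In PARIS WT against PARIS C571A they were those of the dopamine receptor Dop1R2, at 0.80 (adjusted p = 0.681), and of Oamb, at −0.80 (adjusted p = 0.780), both by edgeR. Against whole brain, 4 of the 12 were past 2-fold upwards in all 3 TRAP control libraries and 0 downwards, beside 13.4% and 16.9% of all genes. The 4 receptors were Dop1R1 with a mean log2 ratio of 4.61, DopEcR with 2.86, Octalpha2R with 2.03 and Octbeta3R with 1.25. The median of the list was 1.04, close to the 5 serotonin genes that stood above whole brain.

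Of 8 other transporters of the SLC6 family, to which SerT belongs, 6 or 7 passed the filter on low counts and 0 were called in any comparison. Gat, the GABA transporter, which is known from glia, had the smallest p against TRAP control, with 19.2 CPM in PARIS WT and 27.2 CPM in PARIS C571A, against 10.3 CPM in TRAP control. Its log2 fold change was 0.90 in PARIS WT (adjusted p = 0.170) and 1.40 in PARIS C571A (adjusted p = 0.153), both by edgeR. ine followed in PARIS C571A at 1.31 (adjusted p = 0.325) and GlyT in PARIS WT at −0.58 (adjusted p = 0.561), and NAAT1, an amino acid transporter, led in PARIS WT against PARIS C571A at 0.93 (adjusted p = 0.144), with Gat next at −0.46 (adjusted p = 0.551), all by edgeR. Glial markers, of which 0 of 6 were called, had a median log2 fold change over TRAP control of 0.63 in PARIS WT and 0.86 in PARIS C571A and a sum of 786 to 901 CPM in PARIS WT and 898 to 1021 CPM in PARIS C571A, against 679 to 729 CPM in TRAP control. Their part in any of the values given here was not tested. Against whole brain, Gat was lower in TRAP control, with a log2 ratio of −3.14 ± 0.27 (SD, n = 3). It was the only one of the 8 past 2-fold in all 3 libraries, beside 13.4% of all genes upwards and 16.9% downwards.

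The G proteins and enzymes through which these receptors act were represented by 19 genes, of which 0 were called in any comparison. Their median log2 fold change was −0.05 in PARIS WT against TRAP control, 0.22 in PARIS C571A against TRAP control and −0.17 in PARIS WT against PARIS C571A. Ggamma1, a G protein gamma subunit, had the smallest p in every comparison, with 590 CPM in PARIS WT and 705 CPM in PARIS C571A, against 505 CPM in TRAP control. Its log2 fold change over TRAP control was 0.22 in PARIS WT (adjusted p = 0.477) and 0.48 in PARIS C571A (adjusted p = 0.193), both by edgeR. Galphas, the stimulatory subunit used by 5-HT7, was next in PARIS WT against TRAP control, at 0.51 (adjusted p = 0.580). Galphao, an inhibitory-class subunit, was next in PARIS C571A against TRAP control, at 0.50 (adjusted p = 0.339), and Galphaq, which activates phospholipase C, in PARIS WT against PARIS C571A, at −0.39 (adjusted p = 0.456), all by edgeR. Against whole brain, 7 of the 19 were past 2-fold upwards in all 3 TRAP control libraries and 2 downwards, beside 13.4% and 16.9% of all genes. Of those upwards, dnc, the cyclic AMP phosphodiesterase, had a mean log2 ratio of 3.16. The 2 downwards were Galphas at −1.49 and Gbeta76C, the eye G protein beta subunit, at −2.47.

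The 6 genes showed little common movement across the 9 TRAP libraries. Over their 15 pairs, Pearson's r of log2 CPM ran from −0.53 for 5-HT2B with SerT to 0.48 for 5-HT1A with SerT, over libraries that share groups and differ in depth. The gene most like each of them was sought by the same measure among 5757 genes with counts above 0 in all 9 libraries and a mean of at least 5 CPM. These were Cp190 for 5-HT1A (r = 0.94), Rdl, a GABA receptor subunit, for 5-HT1B (r = 0.90), Tbc1d22 for 5-HT2A (r = 0.96), CG13300 for 5-HT2B (r = 0.97), Pcyt2 for 5-HT7 (r = 0.93) and pst for SerT (r = 0.95). A highest value among so many genes over 9 libraries is a description only. No gene was the nearest of more than 1 of the 6.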

How the data were processed

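The authors mapped reads to BDGP6.28 with HISAT2 2.1.0 and estimated transcript abundance with StringTie 2.0, whose prepDE script gave the estimated counts per gene that they deposited as whole numbers without normalization. The submitters' processing notes also list GRCh38, which the methods give for the human ChIP-seq reads, not analysed here, and TopHat2 2.0.13, whose role is not given in the sources used here. At most 0.0209% of a library's counts lay on entries that name no gene, which were left out. Symbols, positions and exon lengths came from the Ensembl BDGP6.54 annotation of the same assembly, which held 17650 of 17747 identifiers.

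Each pair of groups was fitted on its own 6 libraries from the table of the 3 groups with edgeR 4.0.16 in R 4.3.3 (filterByExpr at min.count 10 and min.total.count 15, TMM, quasi-likelihood F-test, two-sided), with Benjamini-Hochberg adjustment over all genes tested and a threshold of 0.05. Each standard error is the size of the log2 fold change over the square root of F. The script was tested on simulated data. TRAP control was set over whole brain by log2 ratios of CPM with a prior count of 1, over genes with a mean of at least 10 counts. Alternatives were median-of-ratios size factors, library size only, no filter, DESeq2 1.42.0, all 3 groups in one fit, the table of the pair, leaving out rRNA and mitochondrial genes, a prior count of 5, a replicate block and each replicate left out.

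The genes and the lists were chosen with earlier results of these data known. The text names the 6 genes and all synthesis genes, and of every other list the genes past the threshold or, where none passed, the 2 with the smallest p. Against whole brain it names genes of the lists chosen after their values were seen. 1 of 8 synthesis genes listed, speck, was not matched. The precision is that of 3 libraries per group. Poisson and binomial intervals cover counting error only. Human PARIS reads were not analysed here. Python 3.11.15, pandas 2.3.3, scipy 1.17.1 and matplotlib 3.10.9 were used for tables, intervals and plots.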

Additional observations from a re-analysis of the deposited data

How the results depend on the processing

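None of the 6 serotonin genes was called under any alternative run. Counts over all genes moved. DESeq2 called 167 genes higher and 572 lower in PARIS WT against TRAP control (main test 10 and 59), 135 and 304 in PARIS C571A against TRAP control (main 2 and 15) and 143 and 178 in PARIS WT against PARIS C571A (main 2 and 0), and of the pathway lists 1 and 2, 3 and 1, and 1 and 1 in the same order (main 0 and 1, 0 and 0, 0 and 0). With a replicate block the calls were 0 and 2, then 0 and 0, and 0 higher in the third, and the called pathway gene was lost (0). Replicates with the same number correlated between −0.0294 and 0.0672 in their deviations, and those with different numbers between −0.0427 and 0.0211. No pairing by number is stated, and the numbers were not taken as pairs. Replicate 2 of PARIS WT and replicate 2 of PARIS C571A both had few mitochondrial counts. Whether replicates of the same number were handled together was not tested. All 3 groups in one fit gave 5 higher in the second comparison, 8 higher and 27 lower in the third and 0 pathway genes lower in the first. No filter gave 1 lower and the table of the pair 1 higher and 4 lower in the third. With each replicate left out, calls were 0 to 8 higher and 12 to 44 lower, 0 to 13 and 2 to 11, and 1 to 7 and 0 to 10 in the 3 comparisons, and pathway genes lower in PARIS C571A against TRAP control 0 to 1. Small log2 fold changes turned when a replicate was left out. In PARIS WT against TRAP control they ranged from −0.30 to 0.27 for 5-HT1A (above 0 without TRAP control replicate 2) and from −0.11 to 0.22 for 5-HT7. In PARIS C571A against TRAP control they ranged from −0.20 to 0.39 for 5-HT1A, which was also −0.0083 with median-of-ratios size factors and −0.0026 with DESeq2, from −0.26 to 0.21 for 5-HT1B, from −0.48 to 0.14 for 5-HT2B and from −0.26 to 0.12 for SerT (above 0 without PARIS C571A replicate 2). In PARIS WT against PARIS C571A they ranged from −0.30 to 0.14 for 5-HT1A, from −0.32 to 0.30 for 5-HT2B, which was 0.050 with the replicate block, and from −0.47 to 0.061 for 5-HT7. Without replicate 2 of both groups, chosen after seeing the data, 5-HT2A was 0.033 and 5-HT2B 0.23. Against whole brain, 1 gene, 5-HT2A, was past 2-fold downwards by library size only. In that setting the median of all genes was itself past 2-fold downwards, and 5-HT2A stood at −0.46 relative to it. Leaving out a TRAP control replicate gave 0 to 2 past 2-fold upwards. The share of all genes past 2-fold in these settings is not given here, so these counts have no background beside them. The causes were not tested.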
